A study of Mus musculus with 158 samples.

Results

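The 6 genes described here, Ntf3, Plxna1, Pcdh15, Pcdhb6, Lrrtm4 and Csmd1, encode proteins of neural adhesion and axon guidance, and they were among 285 genes targeted in a pooled shRNA screen. All hairpins whose listed target is one of these genes were taken, each in the libraries of its own pool. This gave 23 of the 1000 targeting hairpins, spread over 10 of the 19 pools: 4 hairpins for each gene except Plxna1, which had 3. A short hairpin RNA (shRNA) is processed in the cell into a small RNA that lowers the messenger RNA of its target, and its integrated DNA serves as a tag that can be counted. The sequences of the hairpins were not used here, so each hairpin is given by its library identifier and target.

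The cells were PDA530 Met, a mouse pancreatic adenocarcinoma line labelled as coming from a liver metastasis. Virus of each pool was given at a multiplicity of infection of 0.3, a level chosen so that an infected cell mostly carries a single hairpin, and the cells were kept for 4 days in 3 µg/ml puromycin. A pellet of these cells was the day 0 sample, 500000 cells were injected into the tail vein of 3 mice per pool, and the same cells were cultured in triplicate. Lungs were taken after 28 days with all tumours of a mouse combined, and hairpins were amplified from genomic DNA by PCR. Every group thus carried the hairpin virus and the puromycin selection, and day 0 was the common starting point of both 28-day arms. The host strain, sex and age, the expression of the 6 genes in this line and the degree of knockdown were not given in the sources used here. Hairpin DNA carries no expression, so the labelled cell type could not be checked against marker genes. Nothing in the labels says that the day 0 pellets came from separate infections, so p-values that involve them measure the spread between these samples, which may be technical.

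As background, growing axons are steered by secreted ligands that act on receptors at the growth cone, and the contacts they form are stabilised by adhesion proteins on both partner cells. Ntf3 encodes neurotrophin-3, a secreted growth factor whose main receptor is the kinase TrkC, the product of Ntrk3. Plexin-A1 is a transmembrane receptor for semaphorins, usually together with a neuropilin, and signals to the cytoskeleton. Protocadherins are cadherin-type adhesion proteins, Lrrtm4 is a leucine-rich repeat protein of the postsynaptic membrane, and Csmd1 is a large transmembrane protein with complement-type domains. Axon guidance genes are recurrently altered in pancreatic cancer, and nerves in and around the tumour are a known route of its local spread.

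Hairpin abundance is given as CPM, the usual depth-scaled read count, taken over all targeting hairpins of the same pool and scaled by trimmed mean (TMM) factors, so a value describes a hairpin relative to the others of its pool. Changes are differences of log2(CPM + 1) with their standard error (SE) from limma, and a hairpin was called at a Benjamini-Hochberg adjusted p below 0.05 over all hairpins of all pools. In the 10 pools that held the 6 genes, the total number of reads per library lay between 4122499 and 22155107 for day 0, between 4525346 and 26068466 for culture and between 58189 and 11104545 for lungs. Lung libraries 1A, 6A and 6B were shallow (244100, 58189 and 358742 reads), control hairpins took 74.39% of lung library 6C, and only 0.6773% of lung library 16D belonged to its own pool. Reads of other pools made up 18.75% of lung library 17A and 15.32% of culture library 16/17A. Culture libraries of pools 1 and 2 were the same libraries, as were those of pools 4 and 5, so Ntf3 and Csmd1, and the hairpins of Pcdh15, shared their culture samples there. The pool 16 hairpin of Plxna1 and the pool 17 hairpins of Lrrtm4 likewise shared culture libraries 16/17 A, B and C.

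All 23 hairpins passed the minimum of 10 reads on average and were tested in all 3 comparisons. Between lungs and day 0, 10 of the 23 were called, 7 higher and 3 lower in lungs. Over all 891 hairpins tested there, 34.8% were called, 15.3% higher and 19.5% lower. Between culture and day 0, 15 of the 23 were called, 10 higher and 5 lower in culture, where 60.2% of 945 tested hairpins were called, 27.1% higher and 33.1% lower. Between lungs and culture, 7 of the 23 were called, 2 higher and 5 lower in lungs, where 24.6% of 889 tested hairpins were called, 11.1% higher and 13.5% lower. The share of the 23 that was called was thus 43.5%, 65.2% and 30.4%, and 5 hairpins were called in no comparison. The median change over the 23 was -0.10 in lungs and 0.43 in culture relative to day 0, against -0.14 and -0.15 over all tested hairpins, and it was -0.34 for lungs relative to culture, against -0.13. Lungs and culture were set against the same day 0 libraries, so these comparisons are not independent of each other.

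The sign of a change depends on the reference it is measured against. The median change of all hairpins in lungs relative to day 0 moved from -0.14 to -0.73 when libraries were scaled by their targeting reads alone, and in culture it moved from -0.15 to -0.64; with the 8 control hairpins as the reference it was -0.57 and -0.99. The called hairpins of the 6 genes in lungs relative to day 0 then split into 2 higher and 5 lower by targeting reads alone and stayed at 7 higher and 3 lower by the controls. In culture relative to day 0 the split was 7 higher and 9 lower by targeting reads alone, and 4 higher and 12 lower by the controls. For lungs relative to culture it was 2 higher and 8 lower by targeting reads alone, and 7 higher and none lower by the controls. Counted in the authors' deposited values, the splits were 2 higher and 3 lower in lungs, 5 higher and 11 lower in culture, and 2 higher and 2 lower in lungs relative to culture. Of the 32 called changes, 24 kept their sign under the 5 scalings tried and 13 were also called under all 5. Such a factor moves every hairpin of a library nearly alike, so, by construction, the 32 changes set against the median change of their own pool kept their sign under all 5. The changes below are on the TMM scale, and "called" refers to limma unless another tool is named. The median hairpin of a pool could itself move on this scale, from -0.54 to 0.08 over the pools and comparisons given here.

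Ntf3, the only secreted ligand among the 6 genes, had all 4 of its hairpins in pool 1. All 4 rose in culture, and 3 of them were also called higher in lungs than at day 0, while none was called between lungs and culture on the TMM scale. On other scalings calls between lungs and culture went both ways. For TRCN0000065440 the difference was -1.28 by targeting reads alone (adjusted p = 0.000185) and 0.64 by the controls (adjusted p = 0.0217). Hairpin TRCN0000065441 stood at 4948, 4867 and 5344 CPM in the 3 day 0 libraries, at 15203, 18124 and 15742 CPM in culture and at 21425, 10999 and 13556 CPM in lungs. Every culture and lung library lay above every day 0 library, and the lung and culture values overlapped. The log2 change was 1.69 ± 0.09 (SE, adjusted p = 7.15e-07) in culture and 1.54 ± 0.28 (adjusted p = 0.00594) in lungs, and the culture change ranked 3rd of 52 hairpins in the pool. The rise in culture was called under all 5 scalings. The rise in lungs was 0.21 (adjusted p = 0.54) when libraries were scaled by targeting reads alone.

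Hairpin TRCN0000065438 was among the abundant hairpins of pool 1, ranked 7th of 52 at day 0. It measured 20646, 19964 and 17944 CPM at day 0, 38225, 34015 and 38944 CPM in culture and 42985, 51688 and 79477 CPM in lungs. The 3 arms did not overlap and lungs held the highest values. It rose by 0.93 ± 0.08 in culture (adjusted p = 1.52e-05) and by 1.53 ± 0.24 in lungs (adjusted p = 0.00399), and the lung-to-culture difference of 0.60 ± 0.24 was not called (adjusted p = 0.0844). By targeting reads alone the lung rise was 0.19 (adjusted p = 0.55), and by the controls the culture change was -0.07. Without the shallow lung library 1A, the lung-to-culture difference was 0.79 with an adjusted p of 0.025.

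Hairpin TRCN0000065440, the most abundant of the Ntf3 hairpins at day 0, measured 28613, 28687 and 26448 CPM at day 0. It reached 60885, 59701 and 57217 CPM in culture and 41072, 38682 and 59593 CPM in lungs. Both later arms lay above day 0 in every library. The change was 1.09 ± 0.05 in culture (adjusted p = 3.31e-07) and 0.71 ± 0.20 in lungs (adjusted p = 0.0351). The culture change was 0.09 by the controls, where it was not called (adjusted p = 0.36). The lung change turned to -0.62 by targeting reads alone and was -0.22 in the deposited values, and leaving out any single day 0 library ended its call (adjusted p 0.11 to 0.13).

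The remaining Ntf3 hairpin, TRCN0000065439, behaved differently among mice. It measured 4149, 3793 and 3881 CPM at day 0, 6184, 6502 and 5653 CPM in culture and 1955, 3184 and 77.1 CPM in lungs. All 3 lung libraries lay below every day 0 library, and mouse C, with 208 reads of the hairpin, lay far below the other mice. It rose by 0.63 ± 0.08 in culture (adjusted p = 0.000208), a change that was -0.36 by the controls, and its lung change of -2.32 ± 1.30 was not called (adjusted p = 0.212). Without mouse C the lung change was -0.66 (adjusted p = 0.083) and the difference from culture was -1.29 (adjusted p = 0.025), so the latter was called only without that mouse. Together, the raw reads of the 4 Ntf3 hairpins made up 8.48% ± 0.14 (SD, n = 3) of the targeting reads of pool 1 at day 0, 13.2% ± 0.093 (SD, n = 3) in culture and 7.23% ± 1.35 (SD, n = 3) in lungs. In raw reads the sum was thus higher in culture than at day 0, while the lung libraries, from 5.70% to 8.25%, lay below the day 0 libraries.

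Plxna1 encodes the semaphorin receptor of the set and was targeted by 2 hairpins in pool 6 and 1 in pool 16. Hairpin TRCN0000079190 moved in opposite directions in the 2 arms. It measured 36322, 33552 and 36839 CPM at day 0, 19670, 20326 and 16556 CPM in culture and 58234, 84089 and 68466 CPM in lungs. No library of one arm overlapped with another arm: culture was lowest, day 0 in between and lungs highest. It fell by 0.92 ± 0.10 on the log2 scale in culture (adjusted p = 4.62e-06) and rose by 0.97 ± 0.19 in lungs (adjusted p = 0.00523). The direct difference between lungs and culture was 1.89 ± 0.29, the 5th highest of 51 hairpins in the pool, with an adjusted p of 0.00015 by edgeR's quasi-likelihood test. The edgeR value is given because the limma p in this pool rested largely on the prior spread. The difference was not called in the deposited values (1.40, adjusted p = 0.16) or by the controls (1.46, adjusted p = 0.26). The fall in culture was called under all 5 scalings, whereas the change in lungs was 0.45 (adjusted p = 0.071) by targeting reads alone, -0.25 in the deposited values and -0.47 by the controls.

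The lung libraries of pool 6 were uneven in depth and in control reads, which bears on that hairpin. Without the shallowest library, 6A, the difference between lungs and culture was 2.01 (adjusted p = 0.00023 by limma), and without library 6C, in which the controls took most reads, it was 1.90 (adjusted p = 0.00026 by limma), beside 4.15e-06 by limma with all libraries. Without library 6B, also shallow, it was 1.67 (adjusted p = 3.71e-06 by limma). The second hairpin of pool 6, TRCN0000079189, was not called in any comparison on the TMM scale. It measured 11647 to 12120 CPM at day 0, 8680 to 13138 CPM in culture and 6892 to 12417 CPM in lungs, and its changes were -0.18 ± 0.16 in culture and -0.34 ± 0.27 in lungs. Its culture change was called lower by targeting reads alone (-0.44), in the deposited values (-0.91) and by the controls (-1.19). Its lung change was -0.85, -1.55 and -1.78 on these 3 scalings, and it was called lower under 1 of the 5 scalings. The difference between the 2 hairpins of this pool was not tested.

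The Plxna1 hairpin of pool 16, TRCN0000340523, was rare from the start and ranked 53rd of 54 hairpins at day 0. It measured 84.9, 83.8 and 78.3 CPM at day 0, and 54.5, 33.6, 43.6, 13.5 and 22.6 CPM in the 5 culture libraries, which all lay below day 0. In lungs it was at 105 CPM in mouse E and had 0 reads in mouse D, whose library held 42538 targeting reads of its own pool. At that depth a count of 0 allows up to 56.4 CPM (3 counts, counting error only). The fall in culture was 1.42 ± 0.48 on the log2 scale, called at an adjusted p of 0.0255 by limma and not by DESeq2 (adjusted p = 0.29). The limma call ended without day 0 library A or D or culture library E (adjusted p 0.051 to 0.058). The lung change of -3.02 ± 2.11 was not called (adjusted p = 0.318). Without mouse D it was 0.31, which rested on the lone lung library of mouse E. Without mouse E the lungs would rest on the 0 reads of mouse D alone, so leaving out a mouse cannot resolve this change.

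Pcdh15 encodes a protocadherin known for the tip links between the stereocilia of inner-ear hair cells. It had 2 hairpins in pool 4 and 2 in pool 5, which were carried by different mice. In each pool 1 hairpin fell in lungs, both relative to day 0 and relative to culture, and neither of these 2 hairpins was called between culture and day 0 with all libraries on the TMM scale. With all libraries, both were called lower in culture by targeting reads alone (-0.89 and -1.10), in the deposited values (-1.24 and -1.76) and by the controls (-1.37 and -1.91). On the TMM scale, without culture library C the hairpin of pool 4 was called lower in culture (-0.71, adjusted p = 0.0037), and without culture library A that of pool 5 was (-0.42, adjusted p = 0.033). Hairpin TRCN0000094900 of pool 4 measured 5585, 5850 and 5160 CPM at day 0, 3430, 3328 and 5524 CPM in culture and 931, 1022 and 1667 CPM in lungs. Every lung library lay below every other library. Its level was 4.58 times lower in lungs than at day 0 on average, a log2 change of -2.24 ± 0.34 (adjusted p = 0.00483), and the difference from culture was -1.77 ± 0.39 (adjusted p = 0.0155). The fall from day 0 was called under all 5 scalings, while the difference from culture lost its call by the controls (-1.08, adjusted p = 0.11), in the deposited values (adjusted p = 0.086), without any single culture library (adjusted p 0.051 to 0.082) and without mouse B (adjusted p = 0.068).

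Hairpin TRCN0000094902 of pool 5 was abundant, ranked 8th of 52 at day 0. It measured 35070, 37671 and 35015 CPM at day 0, 31749, 30516 and 20937 CPM in culture and 16113, 10729 and 11047 CPM in lungs. The lung values lay below all others. The change in lungs was -1.53 ± 0.22 (adjusted p = 0.000397), the 6th lowest of 52, and was called under all 5 scalings. The difference from culture was -1.14 ± 0.30 (adjusted p = 0.0182), and it was 0.02 in the deposited values, 0.32 by the controls and not called without culture library B (adjusted p = 0.084).

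The other hairpins of Pcdh15 were not called in lungs in the main fits, relative to day 0 or to culture. TRCN0000094899 of pool 4 measured 32472, 35105 and 29441 CPM at day 0, 17115, 25739 and 23179 CPM in culture and 18429, 36779 and 49106 CPM in lungs. Its culture values lay below day 0 and its lung values spread to both sides. It fell by 0.57 ± 0.18 in culture (adjusted p = 0.0244), a call that ended without any single day 0 library, and its lung change was 0.00 in size with an SE of 0.38, while the median hairpin of pool 4 changed by -0.54. TRCN0000094901 of pool 5 was rare, at 142, 214 and 220 CPM at day 0, 812, 518 and 297 CPM in culture and 9.47, 317 and 133 CPM in lungs, where mouse A held 36 reads of it. It rose by 1.40 ± 0.38 in culture (adjusted p = 0.0045), where the controls as reference gave -0.10. Its lung change of -1.31 ± 1.09 was not called (adjusted p = 0.375) and was 0.12 without mouse A and -2.34 without mouse B. Relative to culture its lung change was -2.71 ± 1.13, the 2nd lowest of 52, and was not called (adjusted p = 0.116). The lowest adjusted p of that difference with 1 replicate left out was 0.0175. In raw reads the 2 hairpins of pool 5 together fell from 4.76% ± 0.16 (SD, n = 3) of the pool's targeting reads at day 0 to 2.28% ± 0.50 in culture and 1.19% ± 0.19 in lungs, without overlap between the 3 arms. Those of pool 4 made up 4.37% ± 0.47 (SD, n = 3) at day 0, 2.23% ± 0.25 in culture and 3.67% ± 1.68 in lungs, where the mice, from 1.83% to 5.14%, overlapped with day 0.

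Pcdhb6 belongs to the clustered protocadherins, whose combinations on a neuron's surface let it tell its own branches from those of other cells. It had 2 hairpins in pool 12 and 2 in pool 19, and the called changes from day 0 were all rises. Hairpin TRCN0000094302 of pool 12 measured 10978, 8683 and 11027 CPM at day 0, 37964, 45318 and 46194 CPM in culture and 26117, 16283 and 18186 CPM in lungs. The 3 arms did not overlap, with lungs between day 0 and culture. The rise was 2.08 ± 0.13 in culture (adjusted p = 2.31e-11), the 2nd highest of 53 hairpins, and 0.96 ± 0.27 in lungs (adjusted p = 0.0205), and both were called under all 5 scalings. Lungs were lower than culture by 1.12 ± 0.29 (change -1.12, adjusted p = 0.00943), a call that was lost by the controls (-0.70, adjusted p = 0.22), in the deposited values (-0.82, adjusted p = 0.061) and without culture library C (adjusted p = 0.063). The lung call was also lost without any single day 0 library (adjusted p 0.056 to 0.10).

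The partner hairpin in pool 12, TRCN0000094303, started from 26112, 26543 and 25714 CPM at day 0. It measured 46182, 36115 and 42823 CPM in culture and 33252, 84334 and 28467 CPM in lungs, so that every later library lay above day 0 and mouse B stood out among the mice. The rise in culture was 0.67 ± 0.15 (adjusted p = 0.000917), and it was 0.16 by targeting reads alone (adjusted p = 0.23). The lung change of 0.72 ± 0.38 was not called by limma (adjusted p = 0.175, beside 0.0432 by DESeq2), and without mouse B it was 0.24. In raw reads the 2 hairpins made up 4.30% ± 0.20 (SD, n = 3) of pool 12 at day 0, 7.08% ± 0.76 in culture and 6.98% ± 2.85 in lungs.

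In pool 19 the main limma fits called no Pcdhb6 hairpin in any comparison. With the replicate letter as a block, limma called the culture change of TRCN0000423575 (adjusted p = 0.0203), which was -1.03 ± 0.79 in the main fit (adjusted p = 0.285). TRCN0000427699 measured 2359 to 2942 CPM at day 0, 2549 to 4582 CPM in 4 culture libraries and 4086 to 13219 CPM in 3 lungs, all above day 0, with a lung change of 1.41 ± 0.48 (adjusted p = 0.0656 by limma) and a culture change of 0.45 ± 0.32. Without mouse B limma called the lung change (1.70, adjusted p = 0.0115), as it did with DESeq2's size factors (1.60, adjusted p = 0.0301). DESeq2 called it higher in lungs than at day 0 (adjusted p = 0.00245) and than in culture (adjusted p = 0.0397). TRCN0000423575 was among the rarest hairpins of the library, at 12.6 to 31.9 CPM at day 0, 5.52 to 14.5 CPM in culture and 1.11 to 37.4 CPM in lungs. Lung libraries 19A, 19B and 19D held 147, 5 and 61 reads of it, among 3936531, 3999153 and 5423059 targeting reads of the pool. The SE of its lung change was 1.25, so that change was not resolved. The source of the spread between the mice was not tested.

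Lrrtm4 encodes a postsynaptic adhesion protein that binds neurexins and heparan sulfate proteoglycans. Its 4 hairpins, 2 in pool 11 and 2 in pool 17, gave no limma call between lungs and day 0 and 3 between culture and day 0, in both directions. Hairpin TRCN0000217133 of pool 11 measured 35701, 42703 and 40171 CPM at day 0, 10642, 11064 and 7465 CPM in culture and 37286, 33893 and 17569 CPM in lungs. Culture stood below all other libraries, and the lung values reached into those of day 0. It was 4.06 times lower in culture than at day 0 on average, a log2 change of -2.04 ± 0.17 with an adjusted p of 9.2e-06 by edgeR, since the limma p in this pool rested almost wholly on the prior spread. Lungs exceeded culture by 1.55 ± 0.40 (adjusted p = 0.0175), the 7th highest of 52, and the lung change from day 0 was -0.49 ± 0.30 (adjusted p = 0.26). The fall in culture and the difference between lungs and culture were called under all 5 scalings, but the difference was lost without any single culture library (adjusted p 0.052 to 0.061) and without mouse B (adjusted p = 0.087).

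The second hairpin of pool 11, TRCN0000217849, measured 14526, 14789 and 13648 CPM at day 0, 8847, 8554 and 11027 CPM in culture and 7587, 15138 and 8121 CPM in lungs. Culture lay below day 0 in every library, while mouse B lay above all day 0 values. The culture change was -0.60 ± 0.17 with an adjusted p of 0.0069 by edgeR, 0.00185 by limma and 0.30 by DESeq2. The median hairpin of pool 11 changed by -0.54 in culture, so this hairpin, 28th highest of 52, stood close to the middle of its pool. Its lung change of -0.55 ± 0.36 was not called, but without mouse B it was -0.76 (adjusted p = 0.048). Summed in raw reads, both hairpins fell from 5.98% ± 0.31 (SD, n = 3) of pool 11 at day 0 to 1.75% ± 0.19 in culture and 3.96% ± 1.31 in lungs.

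In pool 17 an Lrrtm4 hairpin went the other way. TRCN0000250010 measured 29256, 33496 and 28332 CPM at day 0, 139170, 126394 and 78997 CPM in culture and 31335, 106289 and 77006 CPM in lungs. All culture libraries lay above day 0, and of the mice only A, whose library held 18.75% reads of other pools, stayed within the day 0 range. The rise in culture was 1.88 ± 0.24 (adjusted p = 1.7e-05), the 6th highest of 54, and was called under all 5 scalings. The lung change of 1.07 ± 0.48 was not called (adjusted p = 0.135), but without mouse A it was 1.58 (adjusted p = 0.0038). With all 3 mice, DESeq2 called the lung change (adjusted p = 0.0428). TRCN0000250009 of the same pool was not called in any comparison in the main fits. It measured 17640 to 23743 CPM at day 0, 22273 to 32390 CPM in culture and 13234 to 30311 CPM in lungs. Its culture change of 0.43 ± 0.20 had an adjusted p of 0.0789 by limma and 0.000335 by DESeq2, and limma called it without culture library C (adjusted p = 0.0214). The direction of this change turned with the scaling. Limma called it higher with DESeq2's size factors (0.53, adjusted p = 0.0053). It was called lower in the deposited values (-0.52, adjusted p = 0.012) and by the controls (-0.70, adjusted p = 0.0026).

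Csmd1 encodes a transmembrane protein with CUB and sushi domains that can inhibit complement, and it is studied as a tumour suppressor candidate. All 4 of its hairpins lay in pool 2, and they gave 3 calls in lungs relative to day 0, 2 of them rises. Hairpin TRCN0000101370 carried the strongest called fall in lungs among the 23. It measured 7392, 7923 and 7958 CPM at day 0, 5821, 6636 and 5721 CPM in culture and 1516, 1074 and 760 CPM in lungs. All lung libraries were far below both other arms. The level was 6.95 times lower in lungs than at day 0 and 5.43 times lower than in culture on average, with log2 changes of -2.85 ± 0.33 (adjusted p = 0.000512) and -2.49 ± 0.30 (adjusted p = 0.00121). These were the 4th and the 2nd lowest of 52 hairpins, and the fall from day 0 was called under all 5 scalings. By the controls the difference from culture was -0.86 and was not called (adjusted p = 0.12). The culture change of -0.36 ± 0.17 had an adjusted p of 0.051 by limma and 0.045 by edgeR, and the median hairpin of pool 2 changed by -0.38. Limma called this culture change lower by targeting reads alone (-0.62), in the deposited values (-1.37) and by the controls (-1.43). In this pool the limma p of culture against day 0 rested on the fitted trend alone, so edgeR values are given for it.

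The abundant Csmd1 hairpins rose. TRCN0000101373 measured 34359, 32969 and 25490 CPM at day 0, 75319, 73978 and 56894 CPM in culture and 52852, 44524 and 53695 CPM in lungs. On the TMM scale no arm overlapped with another, with culture highest. The change was 1.15 ± 0.16 in culture (adjusted p = 0.0003 by edgeR) and 0.71 ± 0.16 in lungs (adjusted p = 0.00986), and the lung rise was called under all 5 scalings. The culture rise was 0.08 by the controls (adjusted p = 0.64). Lungs differed from culture by -0.44 ± 0.14, which was not called (adjusted p = 0.0644). This difference was called lower by targeting reads alone (-0.52, adjusted p = 0.0125) and with DESeq2's size factors (-0.44, adjusted p = 0.0445). It turned to 0.54 in the deposited values (adjusted p = 0.058) and 1.20 by the controls (adjusted p = 0.000409).

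TRCN0000101372 showed the same order of arms with smaller distances, at 26037, 28734 and 29349 CPM at day 0, 46441, 50124 and 46606 CPM in culture and 36043, 39575 and 37875 CPM in lungs. It rose by 0.77 ± 0.17 in culture (adjusted p = 0.00038 by edgeR), a change of -0.25 in the deposited values and -0.30 by the controls, and by 0.43 ± 0.13 in lungs (adjusted p = 0.0323), and lungs differed from culture by -0.34 ± 0.10 (adjusted p = 0.0475). The lung rise was 0.09 by targeting reads alone (adjusted p = 0.63) and 0.40 in the deposited values (adjusted p = 0.063). It lost its call without any single mouse (adjusted p 0.052 to 0.081) or without day 0 library A or B (adjusted p 0.13 and 0.098). The difference from culture lost its call without any single culture or lung library and turned to 0.65 in the deposited values and 1.30 by the controls, called in both. On the TMM scale TRCN0000101371 was called only in culture against day 0 without day 0 library C (0.32, adjusted p = 0.0456). It measured 6699 to 10710 CPM at day 0, 8467 to 8871 CPM in culture and 6754 to 7779 CPM in lungs. On other scalings its culture change was called lower, in the deposited values (-0.90, adjusted p = 0.00088) and by the controls (-0.96, adjusted p = 0.00066). By the controls, lungs were called higher than culture (1.39, adjusted p = 0.00079). In raw reads the 4 hairpins made up 8.62% ± 0.49 (SD, n = 3) of pool 2 at day 0, 12.5% ± 0.45 in culture and 8.76% ± 0.41 in lungs, so the sum in lungs overlapped with day 0 while single hairpins moved both ways.

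In 11 pairings of a gene with a comparison, 2 or more hairpins of the gene were called, and in 8 of these all calls had 1 direction. The same count was not made over the other targeted genes, and the comparisons share libraries. The count therefore does not tell whether hairpins of a gene agreed more often than other hairpins. Ntf3 was the only one of the 6 genes whose hairpins were all called in 1 direction in a comparison, culture against day 0, and the signs of 2 of those 4 changes turned with the controls as reference. In lungs against day 0 the called hairpins of Csmd1 went in both directions, those of Pcdh15 were both lower and those of Ntf3 were all higher. In culture against day 0 the called hairpins of Lrrtm4 and of Pcdh15 went in both directions, both called hairpins of Plxna1 were lower, and those of Csmd1 and of Pcdhb6 were higher. In lungs against culture the called hairpins of Csmd1 and of Pcdh15, 2 of each, were all lower. The remaining hairpins of these genes were not called in the comparison concerned. The spread between libraries grew from day 0 to lungs: the median SD of log2(CPM + 1) over the 23 hairpins was 0.09 at day 0, 0.23 in culture and 0.50 in lungs, beside 0.13, 0.35 and 0.65 over all targeting hairpins with at least 10 reads.

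For the 11 hairpins called in at least 2 comparisons, the hairpin of the same pool with the most similar course over the pool's 9 libraries was identified by Pearson's r of log2(CPM + 1), chosen among 50 to 52 hairpins. This is a description of libraries that share depth and scaling. Ntf3 TRCN0000065441 ran closest to a Gpr98 hairpin (r = 0.97), TRCN0000065438 to Stk11 (r = 0.95) and TRCN0000065440 to Map2k4 (r = 0.94). Plxna1 TRCN0000079190 ran closest to Dicer1 (r = 0.94) and Pcdhb6 TRCN0000094302 to Dach2 (r = 0.96). The Pcdh15 hairpins ran closest to Dmd (TRCN0000094900, r = 0.96) and F8 (TRCN0000094902, r = 0.78), the Csmd1 hairpins TRCN0000101370 and TRCN0000101373 to Cask (r = 0.94) and Gria3 (r = 0.92), and Lrrtm4 TRCN0000217133 to Dock2 (r = 0.90). None of the 11 was closest to another hairpin of its own gene.

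The library held 11 more genes of neural adhesion and guidance families, with 40 hairpins: the cadherin-type genes Cdh10, Cdh23, Celsr2, Fat1 and Pcdh18, Csmd3, the TrkC gene Ntrk3, the receptor phosphatase Ptprd, the semaphorins Sema4b and Sema5b, and the guidance ligand Slit2. In lungs against day 0, 10 of 32 tested hairpins were called, 4 higher and 6 lower. In culture against day 0 it was 22 of 38, 11 in each direction, and in lungs against culture 5 of 32, 2 higher and 3 lower. These shares were 31.2%, 57.9% and 15.6%, beside 34.8%, 60.2% and 24.6% over all hairpins. The called differences between lungs and culture were 1.89 ± 0.48 for a Slit2 hairpin and 1.19 ± 0.31 for a Ptprd hairpin, both higher in lungs. For the Ptprd hairpin the limma p rested on the fitted trend alone, and the adjusted p by edgeR was 0.0245. The Slit2 hairpin lay in pool 16, where lung library 16D held few reads of its own. Without the shallow or mixed libraries its difference was 1.97, which rested on the lone remaining lung library, 16E. A Csmd3 hairpin (-2.46 ± 0.32), a Fat1 hairpin (-2.43 ± 0.26) and a Cdh23 hairpin (-1.001 ± 0.18) were lower in lungs. The Ntrk3 hairpins of pool 1, whose product is the receptor of neurotrophin-3, measured -0.40 ± 0.33 and 0.97 ± 0.34 between lungs and culture and were not called by limma (adjusted p = 0.398 and 0.0522; 0.0352 for the latter by edgeR). Both were higher in culture than at day 0, by 0.45 (adjusted p = 0.000743) and 0.41 (adjusted p = 0.00981), and TRCN0000023518 was higher in lungs than at day 0 by 1.38 (adjusted p = 0.00393).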

How the data were processed

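The authors deposited a scaled read signal per hairpin and library; per the submitters' processing notes BWA 0.5.9 was used, while how reads were counted and scaled is not stated there. Dividing each library's values by its lowest one, taken as 1 read, gave reads again, and all 27241 values were whole within 0.01 reads. A hairpin missing from a library counted as 0 reads, reads of technical repeats were summed, and 10 of 158 samples held no values; none of them belongs to a pool of the 6 genes (they are from pools 3 and 13, which hold some related genes). CPM was computed over a pool's targeting reads with TMM factors from edgeR 4.0.16. limma 3.58.1 (R 4.3.3, variance trend, robust) was fitted per pool on log2(CPM + 1) with only the arms compared, over hairpins averaging at least 10 reads. The main unit was a scaled signal, so edgeR and DESeq2 1.42.0 on the recovered reads served as alternatives. The steps were tested on simulated data. PCR reads lack molecular identifiers, so counting limits understate the error. The 6 genes and the list of related genes were chosen with earlier results of these data known. Hairpins called in any comparison were given per sample, and the rest by range. For hairpins called in at least 2 comparisons the most similar hairpin of the pool was named, except 1 that is not reported here.

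All 6 listed transcripts matched their gene symbols in RefSeq (GRCm38.p6). Alternatives covered the tool, the scaling, the pseudocount, the filter, the variance model, the replicate letter as a block and the libraries left out. Libraries with few or foreign reads were left out only after the data had been seen.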

Additional observations from a re-analysis of the deposited data

Results flagged for a closer look

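Plxna1 hairpin TRCN0000079190 was flagged because its change from day 0 went in opposite directions in lungs (0.97) and in culture (-0.92), and the tested difference between the arms was 1.887 on the log2 scale. The difference was not called in the deposited values (1.40) or by the control total (1.46). Both changes used the same day 0 libraries. Under the deposited values and the control total its lung change was negative, while relative to the median change of its pool it was 1.08 under the main scaling, the deposited values and the control total.

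Hairpins of these genes were also read in libraries of other pools, above the highest such level at day 0, which was 0.04698% of a library's reads. Pcdhb6 TRCN0000094303, a pool 12 hairpin, made up 0.05659% of culture library 10/11A and 0.04854% of lung library 11B. Ntf3 TRCN0000065440, a pool 1 hairpin, made up 0.05578% of lung library 2B, and Ntf3 TRCN0000065438 made up 0.04768% of lung library 14A. The source of these reads was not tested. Among the groups of 4 or 5 culture libraries, no hairpin of these genes had a library far from the others.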

How the results depend on the processing

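Between lungs and day 0 the 10 calls among the 23 hairpins became 5 in the deposited values, and between lungs and culture the 7 calls became 4. The 15 calls between culture and day 0 became 9 with all 3 arms in 1 fit. The range over fits without 1 replicate letter was 7 to 11 for lungs against day 0, 13 to 17 for culture against day 0 and 3 to 8 for lungs against culture; leaving out culture letters gave the 3 to 4. Of the related genes, 10 calls in lungs against day 0 became 6 in the deposited values and 5 to 15 without 1 letter, the 22 in culture became 14 with all 3 arms in 1 fit, with 17 to 23 without 1 letter, and the 5 in lungs against culture became 8 with DESeq2, 9 with all 3 arms in 1 fit and 4 to 10 without 1 letter. Without the shallow or mixed libraries 1A, 6A, 10C, 16D and 17A of lungs and 16/17A of culture, left out after seeing the data, the 23 gave 11, 15 and 8 calls.

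Signs of called changes turned under 3 scalings, which shift all hairpins of a pool nearly alike and leave each change relative to its pool's median with the same sign. With targeting reads alone, Ntf3 TRCN0000065440 in lungs was -0.62. In the deposited values it was -0.22, Plxna1 TRCN0000079190 in lungs -0.25, Ntf3 TRCN0000065439 in culture -0.052, Csmd1 TRCN0000101372 in culture -0.25 and between lungs and culture 0.65, and Pcdh15 TRCN0000094902 between lungs and culture 0.0171. By the control total, Plxna1 TRCN0000079190 in lungs was -0.47, Ntf3 TRCN0000065438 and TRCN0000065439 in culture -0.0711 and -0.364, Csmd1 TRCN0000101372 -0.30 in culture and 1.30 between lungs and culture, Pcdh15 TRCN0000094901 in culture -0.10 and TRCN0000094902 between lungs and culture 0.32. Over the alternatives that touched a hairpin's own pool, 374 of 428 fits of the 32 called changes kept sign and call, 40 lost the call and 14 turned. With 1 replicate of the pool left out, 161 of 194 kept both, 33 lost the call and none turned. Among the 37 uncalled changes, 53 alternative fits turned in sign and 59 passed the threshold.

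The replicate letters did not pair the samples in general: deviations of same-letter libraries correlated above 0.1 in 18 of 49 pairs for lungs and day 0, 27 of 53 for culture and day 0 and 21 of 49 for lungs and culture. All 3 pairs exceeded 0.1 in pool 4 for both arms against day 0, in pool 17 for culture against day 0 and in pool 6 for lungs against culture, and there the block changed no call of the 23. With the letter as a block the 23 gave 8, 16 and 6 calls in all. The rare hairpins Plxna1 TRCN0000340523 and Pcdhb6 TRCN0000423575 rested on few reads in some libraries, and their lung changes were not resolved.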
